A study of Mus musculus with 11 samples.

Results

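Dilated hearts of mice that carry an angiotensinogen transgene were compared with wild-type hearts on 3 two-colour arrays, chosen by title as those that pair a wild-type with a dilated animal, of 11 arrays in the series. The arrays hold 6 mice: WT1 with Dil1, WT3 with Dil3 and WT4 with Dil4. All animals were male TG1306/1R mice of about 60 weeks on a C57/BL6 background, with 4 mice in each of 3 groups. WT mice were littermates negative for the transgene. Both carrier groups, Hyp (concentric hypertrophy) and Dil (dilated heart), were heterozygous for it, and none of the mice had a further treatment. RNA came from right and left ventricles with the septum. Carriers were sorted into Hyp and Dil by chamber morphology, cardiac weight index and hypertrophy marker expression, so that heart size and marker levels helped to define the groups compared here. The cardiac weight index on the 3 arrays was 4.2, 4.5 and 4.9 mg/g in the WT mice and 8.1, 7.8 and 9.2 mg/g in the Dil mice. On the arrays of sets 1 and 3 the Dil mouse was labelled with Cy5, and on that of set 4 with Cy3.

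Angiotensinogen is the precursor that renin and angiotensin-converting enzyme cut to angiotensin II, which acts on G protein-coupled receptors of cardiomyocytes and fibroblasts. In the TG1306/1R line the transgene is driven in cardiomyocytes by the alpha-myosin heavy chain promoter, so that the peptide is formed in the heart muscle itself. Angiotensin II is known as a stimulus of cardiomyocyte growth, of fetal gene expression and of matrix deposition, and long pressure or hormone load can end in a dilated, failing ventricle. Adult cardiomyocytes draw most of their energy from fatty acids burned in mitochondria, and a failing heart is known for a shift of fuel use away from them.

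Of 12097 features with a value on 10 arrays, 8106 were genes and 3991 were spots without a single gene name. Log2 ratios had a scaled median absolute deviation of 0.16 on the direct array of set 1, 0.31 on that of set 3 and 0.34 on that of set 4 over the genes, so the last 2 carry wider values. No array compared WT2 with Dil2 in the files used here, and their difference was taken as the sum of 2 arrays over the Hyp2 mouse. The log2 change of Dil over WT, its SE and its adjusted p come from 1 limma model over 10 arrays and 12 mice, with terms for group and dye, and with p-values adjusted over all 12097 features. The deposited values were read as log2 of Cy5 over Cy3. That direction is likely rather than stated, and rests on higher Agt and Nppb in carriers, so the rise of these 2 genes is no separate evidence and the opposite direction would turn every sign below. Of the cardiomyocyte markers checked, 4 of 20 were measured (Hrc, Ryr2, Fabp3 and Ttn), and Myh6, Myh7, Actc1 and Tnnt2 were not among the genes with values.

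In the model 159 features passed at an adjusted p under 0.05 (limma), 1.31% of those tested, of which 80 were higher and 79 lower in Dil ventricles (0.661% and 0.653%). They held 126 genes, 65 higher and 61 lower, from a rise of 0.29 to one of 2.54 and from a fall of -0.28 to one of -2.36 on the log2 scale. Of the 159, 154 had the same sign on all 3 direct arrays, where 14.0% of all features were above 0 on all 3 and 14.3% below 0. The 3 arrays had entered the model, so this count describes the calls. Among the 126 genes 17 changed by more than 1 log2 unit. At an unadjusted p under 0.05 (limma), 986 of the 12097 features were higher and 979 lower. They are the background for such counts in the lists below. The calls depended on the sets: with 1 set left out at a time, 121 features passed for set 1, 32 for set 2, 0 for set 3 and 6 for set 4. The 3 direct arrays alone gave 0 calls (limma, smallest adjusted p 0.056) and 777 features at an unadjusted p under 0.05. With 1 value for each set of mice (a replicate block), 3 features passed, Agt, Rcan1 and Lgals4.

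**Figure D1:**
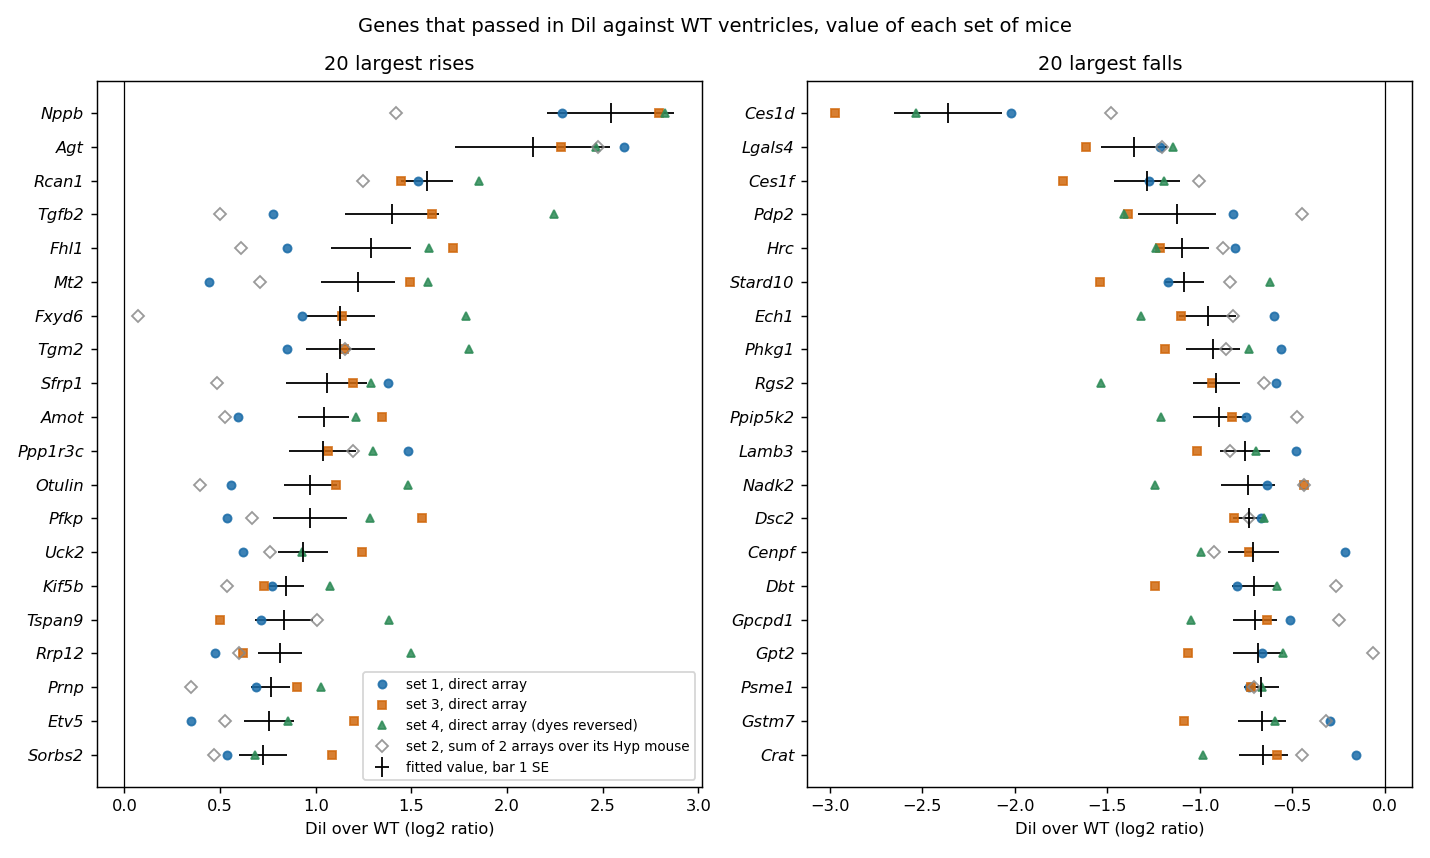
The 20 largest rises (left) and 20 largest falls (right) among genes that passed with the same sign on the 3 direct arrays. The x axis is the log2 ratio of Dil over WT, each symbol is 1 set of mice, and the black tick with its bar is the fitted value with 1 SE. No symbol lies across 0, and the set 2 value (open diamonds) is often the one nearest to it, as for Fxyd6 at 0.07 and Gpt2 at -0.06.

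Agt is the gene of the transgene product. It cannot check the labels here, because the direction of the ratios rests in part on it. Its measured spot read 2.61, 2.28 and 2.46 on the direct arrays of sets 1, 3 and 4, and 2.48 in set 2. All 4 sets were high and near each other. The fitted change was 2.13 ± 0.41 (SE), or 4.39-fold, with adjusted p = 0.042 (limma). Within set 3 the path over the Hyp3 mouse gave only 0.34 in place of 2.28, and the array of Hyp3 against WT3 showed no excess of Agt in the carrier (WT3 over Hyp3 at 0.24). The labels give the Hyp3 mouse a cardiac weight index of 5.3 mg/g on its array with WT3 and 5.6 mg/g on that with Dil3. Whether both arrays held the same animal was not tested, and the model, its count of 12 mice and the set 3 values over the Hyp mouse take them as 1. Whether the spot reads transgene RNA, mouse RNA or both is not given in the sources used here. Agtr2, a receptor gene for angiotensin II, read 0.13, -0.02 and 0.01 on the direct arrays and did not pass, and Agtrap, an adaptor of the type 1 receptor, had a fitted change of 0.17.

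The largest rise was that of Nppb, which encodes brain natriuretic peptide, a hormone released by stretched ventricles. Nppb read 2.29, 2.80 and 2.83 on the direct arrays of sets 1, 3 and 4 and 1.42 in set 2. Every Dil heart was above its WT partner, that of set 2 the least. The fit gave 2.54 ± 0.33, a 5.82-fold rise with adjusted p = 0.016 (limma). In set 4 the Hyp mouse lay 0.30 above its WT mouse and 3.10 below the Dil mouse, whereas in set 2 the Hyp mouse lay 1.28 above WT2 and 0.14 below Dil2.

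The RefSeq promoter of Nppb is shown because the gene has the largest rise in the comparison (GRCm38.p6, chr4:147985650-147985949, plus strand, 250 bases before the start to 50 after it). Capitals mark 2 GATA matches (AGATAA or TGATAA) and 1 MCAT match (CATTCC), searched on both strands, none of which overlaps another.
Nppb promoter: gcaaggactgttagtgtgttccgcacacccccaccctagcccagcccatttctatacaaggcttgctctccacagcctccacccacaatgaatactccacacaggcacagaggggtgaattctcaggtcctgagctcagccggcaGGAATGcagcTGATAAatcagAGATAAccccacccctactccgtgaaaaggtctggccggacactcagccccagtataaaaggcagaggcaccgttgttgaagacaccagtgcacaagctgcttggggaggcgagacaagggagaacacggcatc
Of 32851 promoters of that length, 18.6% hold one of the GATA letters and 14.7% the MCAT letters. A match is a description of the sequence, and no binding was measured here. Of the 126 genes that passed, 98 matched an entry of the promoter table by symbol.

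Rcan1, an inhibitor of the phosphatase calcineurin whose own short transcript is a known target of calcineurin and NFAT, had the smallest adjusted p of the comparison. It read 1.54, 1.44 and 1.85 on the direct arrays and 1.25 in set 2. These 4 values lay closer together than those of Nppb. The rise was 1.58 ± 0.14, or 2.99-fold, with adjusted p = 0.004 (limma). The promoter of the gene's internal start is shown because that transcript is the one known to answer to NFAT, although the spot was not tied to either of the 2 starts in the table (GRCm38.p6, chr16:92400029-92400328, minus strand). Capitals mark 3 matches to the NFAT core GGAAA on either strand.
Rcan1 promoter, internal start: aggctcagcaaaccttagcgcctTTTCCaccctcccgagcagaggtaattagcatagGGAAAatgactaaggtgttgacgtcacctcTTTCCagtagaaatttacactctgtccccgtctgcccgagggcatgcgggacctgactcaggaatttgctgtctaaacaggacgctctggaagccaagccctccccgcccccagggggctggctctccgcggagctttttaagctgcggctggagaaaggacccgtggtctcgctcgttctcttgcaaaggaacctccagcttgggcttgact
The 5 letters are common, and 61.3% of all promoters of this length hold them.

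Fhl1, a LIM-domain protein of the sarcomere, read 0.85, 1.72 and 1.59 on the direct arrays and 0.61 in set 2. It rose by 1.29 ± 0.21 (limma, adjusted p = 0.027). Mt2, a metallothionein that binds zinc and copper, read 0.44, 1.49 and 1.59, and 0.71 in set 2. Its rise of 1.22 ± 0.19 passed (limma, adjusted p = 0.026), and sets 3 and 4 were the higher ones. Mt1 read -0.35, 0.90 and 0.59 with a fitted change of 0.45 that did not pass. Of the 5 measured genes in the hypertrophy marker list 4 passed, all higher, but that list was drawn up with these results known and the hearts were selected on such markers.

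Metallothionein promoters carry metal response elements, and that of Mt2 is shown because the data bear on a gene with several of them (RefSeq, GRCm38.p6, chr8:94172368-94172667, plus strand). Capitals mark 4 matches to TGCACNC or TGCGCNC on either strand.
Mt2 promoter: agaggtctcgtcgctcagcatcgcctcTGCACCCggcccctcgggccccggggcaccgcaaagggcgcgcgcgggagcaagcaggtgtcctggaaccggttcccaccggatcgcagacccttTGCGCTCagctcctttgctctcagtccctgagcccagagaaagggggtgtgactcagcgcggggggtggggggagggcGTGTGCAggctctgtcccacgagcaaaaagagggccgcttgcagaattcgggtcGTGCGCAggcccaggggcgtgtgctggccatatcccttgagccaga
At least 1 such match is in 25.7% of all promoters of this length. Metal was not measured.

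Genes of mitochondrial fuel use lay below 0 as groups. Of 32 measured genes of fatty acid oxidation, 31 had a fitted value below 0, the median was -0.35 against 0.00 over all features tested, and 17 were below 0 on all 3 direct arrays (14.3% of all features). In that list 5 fell and 0 rose in the test. The list medians were -0.21, -0.47 and -0.44 on the direct arrays of sets 1, 3 and 4, and -0.15 in set 2. Every set lay below 0, sets 1 and 2 less so.

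Ech1, which isomerises dienoyl-CoA intermediates of unsaturated fatty acids, read -0.60, -1.10 and -1.32 on the direct arrays and -0.82 in set 2. It fell to 0.515 of the WT level (-0.96 ± 0.15; limma, adjusted p = 0.026), and its 2 spots had direct means of -1.02 and -0.99. Slc25a20, the carrier that brings acylcarnitines into mitochondria, read -0.88 and -1.10 in sets 1 and 3 but -0.09 in set 4, where dyes were reversed. Its fitted fall was -0.62 ± 0.09 (limma, adjusted p = 0.016) with a fitted dye effect of -0.33, and without a dye term it did not pass (limma, adjusted p = 0.087). Crat, which exchanges acetyl groups between CoA and carnitine, fell by 0.66. Etfdh, which passes electrons from fatty acid oxidation to ubiquinone, fell by 0.58, and Hsd17b10, a dehydrogenase of short-chain hydroxyacyl-CoA, by 0.53. Hadh and Decr1 had fitted values of -0.72 and -0.79 with adjusted p = 0.052 and 0.058 (limma), just short of the threshold. Hsd17b4, a peroxisomal enzyme, was the member above 0, at 0.33.

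Carboxylesterases gave the largest fall. Ces1d, which hydrolyses stored triacylglycerol, read -2.02, -2.97 and -2.54 on the direct arrays and -1.48 in set 2. The gene was low in each Dil heart and fell to 0.195 of the WT level (-2.36 ± 0.29; limma, adjusted p = 0.016). Ces1f, a related esterase, read -1.27, -1.74 and -1.19, and -1.01 in set 2. Its fitted fall was -1.29 ± 0.18 (limma, adjusted p = 0.016). These 2 genes belong to a family of near-identical copies, and cDNA spots can bind RNA of several of them, so their values are uncertain as to the copy. Stard10, a lipid transfer protein, read -1.17, -1.54 and -0.62, and -0.83 in set 2, and fell by 1.08 on the log2 scale. Of 23 measured genes for lipid storage and transfer these 3 passed, and the median of the list was -0.04.

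In the TCA cycle and pyruvate dehydrogenase list, 26 of 29 measured genes were below 0 with a median of -0.27, and 2 fell. Pdp2, the phosphatase that switches pyruvate dehydrogenase on, read -0.82, -1.39 and -1.41, and -0.45 in set 2. It fell to 0.459 of the WT level (-1.12 ± 0.21; limma, adjusted p = 0.040). Fh1, fumarase, read -0.22, -0.43 and -0.81, and -0.15 in set 2, with a fall of -0.45 ± 0.09. The kinases that switch the complex off did not pass, with fitted values of -0.42 for Pdk2, 0.04 for Pdk3, 0.09 for Pdk4 and 0.36 for Pdk1. Dbt, a subunit of the complex that breaks down branched-chain amino acids, read -0.80, -1.24 and -0.58, and -0.26 in set 2, and fell by 0.71.

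Respiratory chain genes showed the same sign with a strong spread between arrays. In complex I, 21 of 22 measured genes were below 0 with a median of -0.35, and 3 fell, Ndufa13, Ndufv3 and Ndufb7. The complex I medians were -0.06 and -0.18 on the direct arrays of sets 1 and 3, -0.75 on that of set 4, and -0.39 in set 2. Ndufa13 read -0.07 and -0.11 in sets 1 and 3 against -1.23 in set 4 and -0.65 in set 2, with a fitted fall of -0.56 ± 0.09 (limma, adjusted p = 0.026). Its fitted dye effect was 0.40 toward Cy5, and without a dye term the gene did not pass (limma, adjusted p = 0.22). The path over the Hyp mouse gave Ndufa13 -1.26 in set 3 and 0.24 in set 4. Dye cancels in the set 2 sum, and also in a set 4 value from its direct array and its path over the Hyp mouse, where the complex I median was -0.54; in set 3 the same kind of value was -0.34. For complexes III to V, 29 of 32 measured genes were below 0 with a median of -0.31, and 2 fell. Cox6b2, a subunit of cytochrome c oxidase, read -0.06, -0.68 and -0.54, and -0.80 in set 2. Cox7c, of the same enzyme, read 0.03, -0.23 and -0.88, and -0.76 in set 2. The median of the complexes III to V list was 0.00 on the direct array of set 1.

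Of 47 measured genes in the mitochondrial ribosomal protein list 37 were below 0, and the median was -0.16. In that list Mrps35 and Mrps36 fell, by 0.50 and 0.49. Mrps36 is counted there by its symbol, and whether its product belongs to that ribosome was not tested. Cytosolic ribosomal protein genes were measured on the same arrays. In the fit they split evenly, with 33 of 66 above 0, a median of 0.00 and 0 calls. The list medians of single sets lay on both sides of 0. They were -0.05, 0.21 and -0.15 on the direct arrays of sets 1, 3 and 4, and -0.32 in set 2. At an unadjusted p under 0.05 (limma), 2 higher and 0 lower of the 66 were counted.

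**Figure D2:**
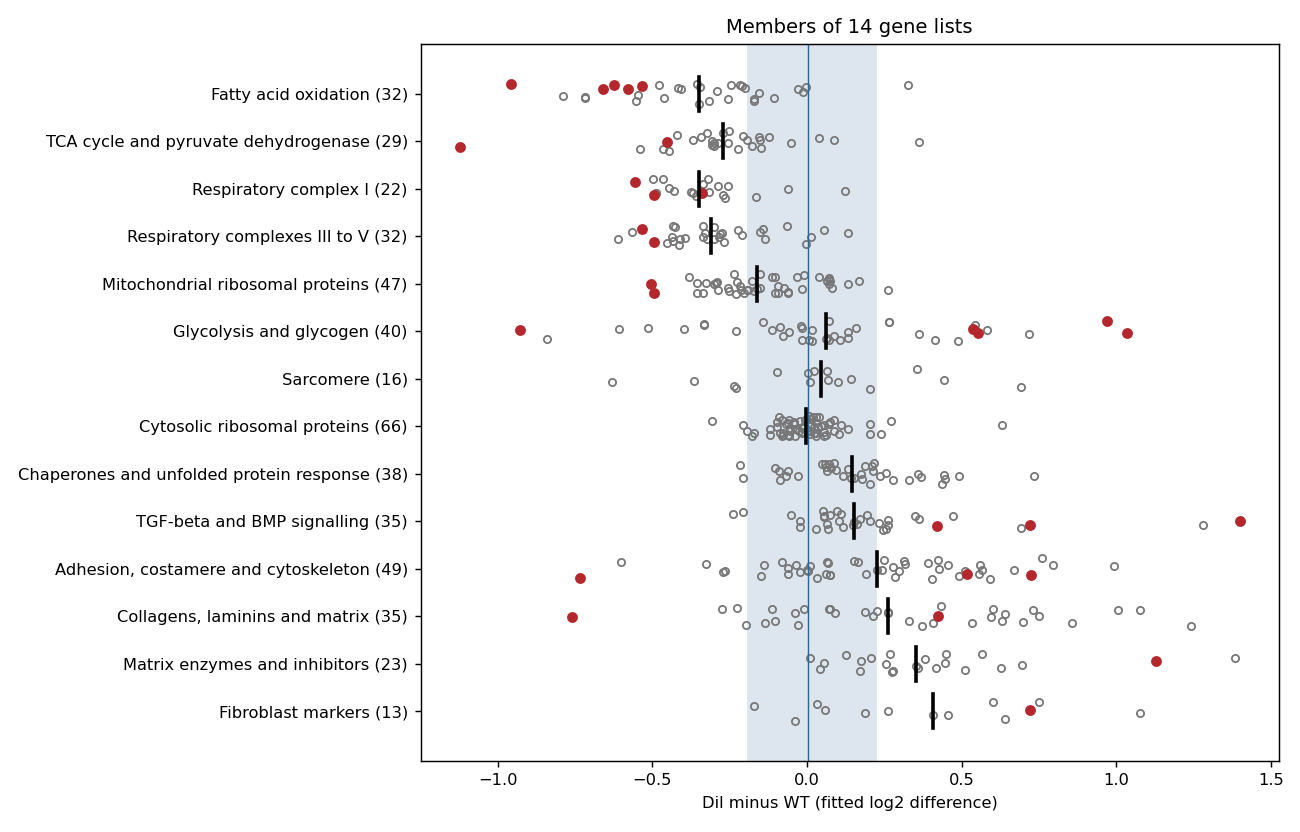
Fitted Dil minus WT differences (x axis, log2) of every measured gene in 14 lists, with the number of genes in brackets. Filled red points passed, open points did not, black bars are list medians, and the shaded band holds the middle 80% of all 12097 features around their median (blue line). The fatty acid oxidation, TCA and respiratory lists sit left of the line, with medians from -0.35 to -0.27, and the matrix lists right of it.

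Glycolysis and glycogen genes moved both ways. Of 40 measured genes 4 rose and 1 fell, and the median was 0.06 (0.01 without set 4). Ppp1r3c, which brings protein phosphatase 1 to glycogen and favours its synthesis, read 1.48, 1.07 and 1.30, and 1.20 in set 2. Its rise was 1.04 ± 0.18, or 2.05-fold (limma, adjusted p = 0.030). Pfkp, an isoform of phosphofructokinase, read 0.53, 1.55 and 1.28, and 0.67 in set 2, and rose by 0.97 ± 0.19. Gyg, the primer of glycogen chains, rose by 0.54, and Ugp2, which makes UDP-glucose for them, by 0.55. Phkg1, a catalytic subunit of phosphorylase kinase, which starts glycogen breakdown, read -0.56, -1.19 and -0.73, and -0.86 in set 2, and fell by 0.93. Slc2a1 and Slc2a4, the glucose transporters GLUT1 and GLUT4, had fitted values of 0.58 and -0.40 and did not pass.

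Among calcium handling genes 1 of 18 measured passed. Hrc, which binds calcium inside the sarcoplasmic reticulum, read -0.81, -1.22 and -1.24, and -0.87 in set 2. It fell to 0.468 of the WT level (-1.10 ± 0.14; limma, adjusted p = 0.016). Atp2a2, the calcium pump of the reticulum, read -0.04, -1.06 and -0.42, and -0.03 in set 2; the fitted value of -0.49 did not pass (limma, adjusted p = 0.18). Ryr2, the release channel, had a fitted value of -0.34. Of 11 genes for channels and pumps of excitability, Fxyd6, a regulator of the sodium pump, read 0.93, 1.14 and 1.78 on the direct arrays but 0.07 in set 2, and rose by 1.13 ± 0.18 (limma, adjusted p = 0.026). Kcnd2, a subunit of the transient outward potassium channel, fell by 0.63. None of the 16 measured sarcomere genes passed in the limma model, where Tnnt1 at -0.63 and Pdlim5 at 0.69 lay farthest from 0 and their median was 0.04; at an unadjusted p under 0.05, 2 higher and 3 lower were counted. In the adhesion and cytoskeleton list of 49 genes Sorbs2, an adaptor at Z-discs, rose by 0.73 and Tln1, talin, by 0.52, while Dsc2, a desmosomal cadherin, fell by 0.73, reading -0.67, -0.82 and -0.65 with -0.73 in set 2.

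Of 35 measured genes of transforming growth factor beta and BMP signalling 30 had a fitted value above 0 (median 0.15), and 3 rose. The list medians were 0.39 and 0.46 on the direct arrays of sets 1 and 3, with the Dil mouse in Cy5, but 0.00 on that of set 4, with reversed dyes, and 0.05 in set 2. On all 3 direct arrays 12 of the 35 were above 0 (14.0% of all features). Tgfb2, a ligand of that family, read 0.78, 1.61 and 2.25 on the direct arrays and 0.50 in set 2. It rose by 1.40 ± 0.24, or 2.64-fold (limma, adjusted p = 0.032), and sets 3 and 4 were the higher ones. Fstl1, a secreted glycoprotein, read 0.44, 0.98 and 1.04, and 0.41 in set 2, and rose by 0.72; its 2 spots had direct means of 0.14 and 1.50. Bmpr2, a receptor of bone morphogenetic proteins, rose by 0.42. Fstl3 and Tgfb3 had fitted values of 1.28 and 0.69 that did not pass. Sfrp1, a secreted antagonist of Wnt ligands, read 1.38, 1.19 and 1.29, and 0.48 in set 2, and rose by 1.06 ± 0.21 (limma, adjusted p = 0.048).

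Matrix gene medians were higher on the direct arrays of sets 3 and 4 than in sets 1 and 2. Values of those 2 arrays also spread more widely over all genes, and the part of that spread was not tested. Of 35 measured collagens, laminins and other matrix genes 25 were above 0 with a median of 0.26; 1 rose, Ccn1, and 1 fell, Lamb3. Their medians were 0.04, 0.56 and 0.42 on the direct arrays of sets 1, 3 and 4, and 0.09 in set 2. Over the Hyp mouse the median was 0.26 in set 3 and 0.71 in set 4. Without set 4 the fitted median was 0.17. All 23 measured matrix enzymes and inhibitors had a fitted value above 0 (median 0.35), and 1 of them passed. Tgm2, which cross-links matrix proteins, read 0.85, 1.15 and 1.80, and 1.15 in set 2. It rose by 1.13 ± 0.18 (limma, adjusted p = 0.026). Timp1, an inhibitor of matrix proteases, read -0.16, 2.26 and 2.27, and 0.15 in set 2: it was high in 2 of the 4 Dil hearts, and the fitted 1.38 ± 0.45 did not pass (limma, adjusted p = 0.16). Fbln2, fibulin 2, read 0.20, 1.01 and 2.07, and 0.53 in set 2, with adjusted p = 0.050 (limma), just above the threshold. Lamb3, a laminin chain of epithelial basement membranes, read -0.48, -1.01 and -0.70, and -0.84 in set 2, opposite to most of the list.

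Fibroblast markers overlap with the matrix lists, which hold 8 of the 13 measured. Their median over 13 measured genes was 0.03, 0.67 and 0.64 on the direct arrays of sets 1, 3 and 4, and 0.05 in set 2, and 11 of the 13 had a fitted value above 0. The fitted median of 0.41 was 0.22 without set 4 and 0.65 without set 1. The 5 markers in no matrix list were Pdgfra at -0.17, Ddr2 at 0.03, Tcf21 at 0.06, Vim at 0.46 and Fstl1 at 0.72; of the shared ones, Col3a1 and Col1a2 were at 0.64 and 0.60. The 6 measured macrophage and leukocyte markers all had a fitted value above 0 (median 0.30, and 0.16 without set 4), but their median in set 2 was -0.01. Endothelial and smooth muscle markers had medians of -0.07 and -0.13. No marker of those 3 groups passed in the limma model, where the numbers at an unadjusted p under 0.05 were 1 higher and 0 lower for leukocytes, 0 higher and 1 lower for endothelium and 0 higher and 2 lower for smooth muscle. In whole ventricles fewer cells of a type and less RNA per cell cannot be told apart, and the part of these cells in the results above was not tested. The cardiomyocyte list, with a median of -0.17 over its 4 measured genes, is too short to describe the muscle share.

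**Figure D3:**
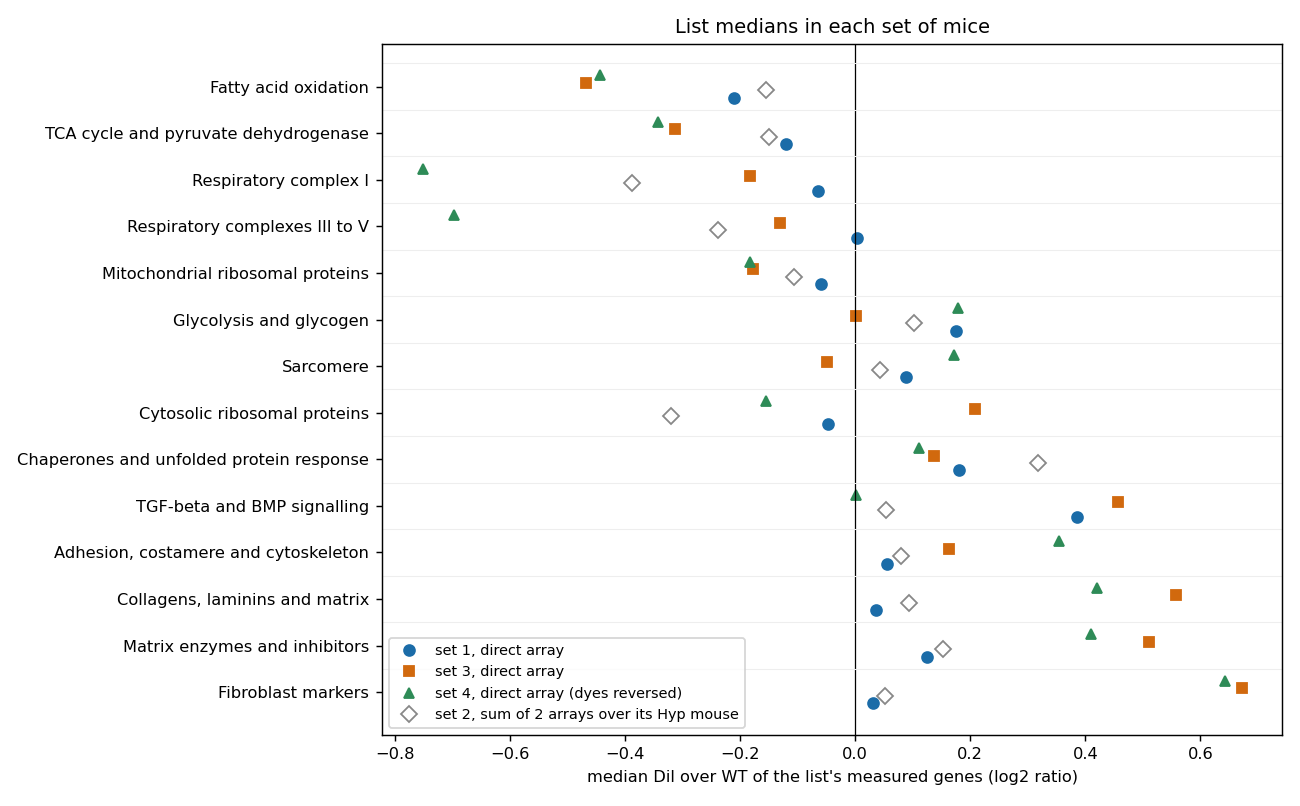
Median log2 ratio of Dil over WT (x axis) of the measured genes of 14 lists, 1 symbol for each set of mice. Fatty acid oxidation is below 0 in every set. The matrix lists and fibroblast markers are near 0 in sets 1 and 2 and from 0.41 to 0.67 in sets 3 and 4, while complex I runs from -0.06 in set 1 to -0.75 in set 4.

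Among 42 measured genes of calcineurin, MAP kinase and growth signalling 2 rose and 2 fell, with a median of 0.02. Besides Rcan1, Prkcd, a protein kinase C, rose by 0.49. Nfatc4, a transcription factor that calcineurin activates, read -0.49, -0.47 and -0.58, and -0.85 in set 2, and fell by 0.57. Igf2, a growth factor, fell by 0.58. Rgs2, which ends signalling of the Gq class used by the type 1 angiotensin receptor, read -0.59, -0.93 and -1.53, and -0.65 in set 2. It fell to 0.532 of the WT level (-0.91 ± 0.13; limma, adjusted p = 0.016), and all 3 of its spots lay below 0 on the 3 direct arrays. Among 23 cardiac transcription factor genes Hif1a, of the oxygen response, rose by 0.48 and Camta1 by 0.53. Of 31 Notch pathway genes 0 passed in the limma model (at an unadjusted p under 0.05, 1 higher and 0 lower). Hes1, a Notch target, read 1.54 and 1.02 on the arrays with the Dil mouse in Cy5 and -0.78 on that with it in Cy3, with a fitted dye effect of 1.00 and a fitted change of 0.33.

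Of genes for protein turnover and stress, Bnip3, which marks mitochondria for autophagy, read 0.41, 0.72 and 0.55, and 1.18 in set 2, and rose by 0.69. Sqstm1, an autophagy receptor, rose by 0.62, and Npc1, which exports cholesterol from lysosomes, fell by 0.42. In the lysosome and autophagy list 2 of 36 measured genes rose and 1 fell, 22 were above 0, and the median was 0.05. Psme1, a subunit of the proteasome activator PA28, read -0.73, -0.72 and -0.67, and -0.71 in set 2. These 4 values were nearly equal, but the path over the Hyp mouse gave -0.45 in set 3 and -1.28 in set 4. The fitted fall was -0.67 ± 0.10 (limma, adjusted p = 0.016). Psme1 was the 1 call among 28 measured genes of the proteasome and ubiquitin ligase list, whose median was 0.02. The chaperone list had 30 of 38 measured genes above 0 and a median of 0.15, and none passed in the limma model. At an unadjusted p under 0.05 (limma), 7 of the 38 were higher and 1 lower, beside 986 and 979 of all 12097 features. Ccnd2, a D-type cyclin, was read by 7 spots, all with a direct mean above 0, and rose by 0.59 ± 0.08 (limma, adjusted p = 0.016). It was the 1 call among 49 measured genes of the cell cycle list, whose median was 0.07. Apoptosis, interferon and clock genes gave 0 calls in 23, 23 and 9 measured genes (limma; at an unadjusted p under 0.05, 3 higher and 0 lower in the first list, 2 higher and 1 lower in the second list, 1 higher and 0 lower in the third list).

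Among the other large rises, Amot, a scaffold of cell junctions, read 0.59, 1.35 and 1.21, and 0.53 in set 2, and Kif5b, a kinesin motor, read 0.77, 0.73 and 1.08, and 0.54 in set 2. They rose by 1.04 and 0.85. Otulin, a deubiquitinase, Uck2, a kinase of pyrimidine salvage, Tspan9, a tetraspanin, Rrp12, of ribosome assembly, Prnp, the prion protein, and Etv5, an ETS transcription factor, rose by 0.76 to 0.97. Lgals4, a galectin, read -1.21, -1.61 and -1.14, and -1.21 in set 2, and fell to 0.391 of the WT level (-1.36 ± 0.18; limma, adjusted p = 0.016). Ppip5k2, a kinase of inositol pyrophosphates, Nadk2, the mitochondrial NAD kinase, Cenpf, a kinetochore protein, Gpcpd1, which degrades glycerophosphocholine, Gpt2, a mitochondrial alanine aminotransferase, and Gstm7, a glutathione transferase, fell by 0.66 to 0.89. Of the 126 genes 47 were read by more than 1 spot, and all 127 of their spots had a direct mean of the fitted sign. These spots had entered the model, so this count describes the calls. Purb and Sars, named after their values were seen, had 0 spots with that sign on each of the 3 direct arrays.

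Set 2 shares no mouse and no array with the direct arrays. Of 58 genes that lay at 0.5 or beyond, on the same side, on each of the 3 direct arrays, 51 had that sign in set 2 (87.9%), with a median of 0.47 in the direct direction. Of the 2340 genes with 1 sign on the 3 direct arrays at any size, 64.5% had that sign in set 2. Over all 8106 genes 58.8% had in set 2 the sign of their direct mean. At 0.75 or beyond, 15 of 15 genes had the sign of the direct arrays, and at 1 or beyond 8 of 8, with a set 2 median of 1.23. The 7 of 58 that did not, named here after their values were seen, were Rmnd1, Eif4ebp1, Micu2, Fgfr1, Prkar1a, Ipo4 and Tgfb3, with set 2 values from -0.36 to 0.22. Across all 8106 genes Pearson's r was 0.30 between the direct arrays of sets 1 and 3, whose dye order was the same. Between arrays of opposite dyes it was 0.12 for sets 1 and 4 and -0.03 for sets 3 and 4. With both paths of sets 3 and 4 joined, so that dye cancels, r between them was 0.38, and r with set 2 was 0.06 for set 3 and 0.46 for set 4. These values run across genes, which are not independent replicates, and are given as a description.

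**Figure D4:**
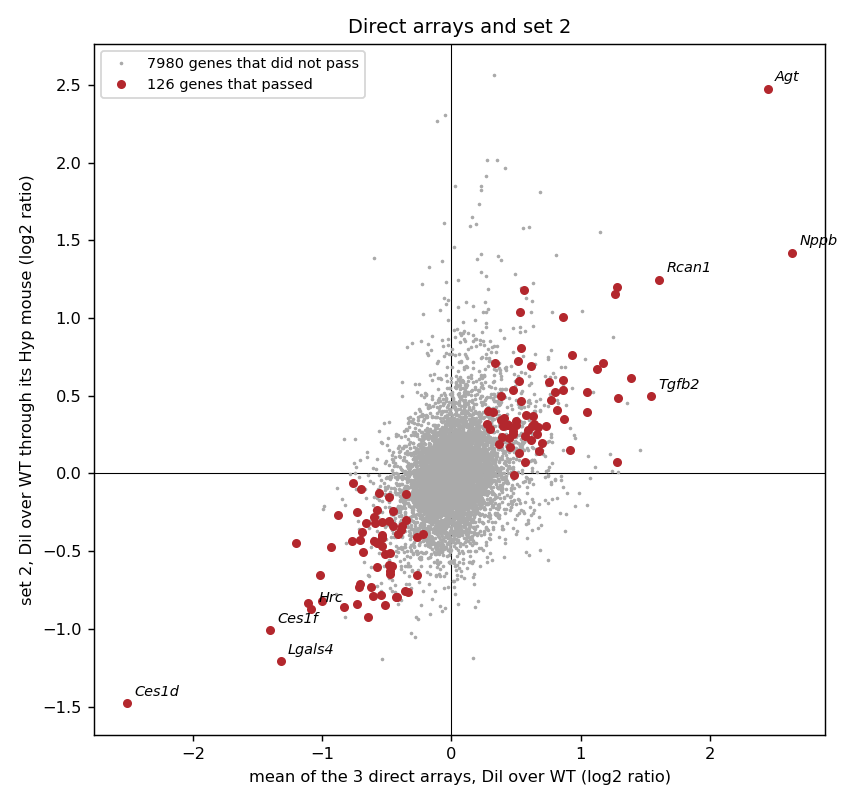
Each point is 1 of 8106 genes, with the mean log2 ratio of Dil over WT on the 3 direct arrays (x axis) and the value of set 2 over its Hyp mouse (y axis). Genes that passed are red; set 2 entered the model, so their place along y is no separate test. Agt, Rcan1, Ces1d and Lgals4 lie past 1 on both axes.

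The Hyp carriers share the transgene, and the same model gave their values beside those of Dil. Hyp and WT differed in 0 features at an adjusted p under 0.05 (0.00% of those tested; limma, smallest adjusted p 0.996, with 478 at an unadjusted p under 0.05). Dil and Hyp themselves differed at an adjusted p under 0.05 in 7 features (limma, 0.0579% of those tested), all among the 159. Agt lay 2.07 ± 0.40 above WT in Hyp, which did not pass (limma, adjusted p = 0.996), and its Dil minus Hyp value was 0.06 ± 0.38. Rcan1 lay 0.99 above Hyp (limma, adjusted p = 0.030), Amot 0.98 (0.030) and Kif5b 0.67 (0.030). Stard10 lay at -1.17 against Hyp (limma, adjusted p = 0.004), while Hyp and WT differed by 0.09. Nppb, Tgfb2 and Ces1d had Dil minus Hyp values of 1.55, 1.25 and -1.69 that did not pass (limma, adjusted p = 0.12, 0.082 and 0.059). Nabp1, Usp28 and 1 unnamed spot make up the 7. That count was 0 without set 1 or set 4.

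**Figure D5:**
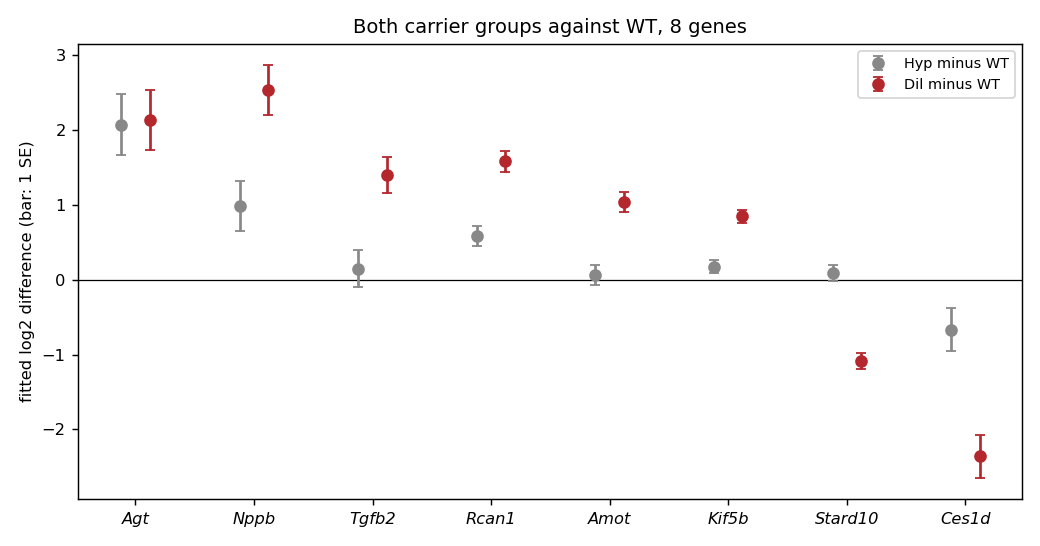
Fitted log2 difference from WT (y axis) of 8 genes in Hyp (grey) and Dil (red) carriers, with bars of 1 SE. Agt stands at about the same height in both groups, and Stard10 and Amot lie near 0 in Hyp, at 0.09 and 0.06.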

How the data were processed

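The deposited table holds 1 value per spot and array, a log2 ratio that the authors made from 2-colour scans; for its log base, background correction and normalization the sources used here give nothing, and if the base were e, folds would be larger. Per the labels' protocols, 25 µg of total RNA per dye was labelled from oligo(dT) primers, and arrays carried a 15K clone set with 1563 further clones. Of 17664 spots, 736 in positions that carry no annotation in any of 32 blocks were taken as controls and left out. GEO's platform table gave 12563 spots 1 gene symbol, 412 several and 3953 none; spots of a gene were averaged. Column medians of the 10 arrays used lay between -0.01 and 0.01. The array of WT1 and Hyp1 was left out because its column is out of spot order: against the summed ratios of set 1's remaining arrays, its median block correlation was 0.30 in place and 0.62 at 8 blocks away, higher there in 24 of 24 blocks.

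Fits used limma 3.58.1 in R 4.3.3: generalized least squares with terms Hyp minus WT, Dil minus WT and dye, mice as random effects (variance ratio 0.109 to the residual), eBayes, and Benjamini-Hochberg adjustment over 12097 features, with a threshold of 0.05. The model code was also run on data simulated from the fitted model itself, which cannot show whether its assumptions hold for these arrays. Each mouse is 1 animal, and sets pair mice by the number in the labels; all arrays compare mice of 1 set, so whether same-numbered mice deviate together cannot be computed from these ratios. The number of arrays limits the precision. The members, gene lists and tests were chosen with earlier results of these data known. Genes are named by a rule: Agt; the 20 largest rises and 20 largest falls among genes that passed with 1 sign on the 3 direct arrays; list members that passed (52); genes that passed on the direct arrays alone (0). List members that did not pass, Nabp1, Usp28 and the genes outside the lists are named after their values were seen. Alternatives changed the arrays used, the dye term, mouse effects, scale, centring, spot averaging, moderation and the mice.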

Additional observations from a re-analysis of the deposited data

Results flagged for a closer look

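Among 67 genes named by the rule, 4 had a set of mice far from the other 3 (a gap past Dixon's 95% critical value for 4 values); chance flags about 1 in 20. In set 4 Rrp12 read 1.50, with 0.47, 0.62 and 0.60 in sets 1, 3 and 2. Kcnd2 read -1.13 in set 4, and -0.52, -0.47 and -0.43 in the others, and Mrps35 read -1.05 in set 4, and -0.20, -0.20 and -0.30 in the others. For Lgals4 the value that stands apart is that of set 3, -1.61, against -1.21, -1.14 and -1.21. Set 4 is the 1 direct array with reversed dyes; the part of the dyes in these values was not tested.

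In 4 of the 67 genes the 2 carrier groups differed in their change from WT by the Dil minus Hyp contrast of the limma model: Rcan1 by 0.99, Amot by 0.98, Kif5b by 0.67 and Stard10 by -1.17, with adjusted p from 0.004 to 0.030.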

How the results depend on the processing

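The count of 159 features that passed in Dil minus WT became 0 with the 3 direct arrays alone (777 at an unadjusted p under 0.05, limma), 3 with the replicate block, 98 with arrays scaled to the same spread (58 higher and 40 lower, 83 of them among the 159), 265 with the array of WT1 and Hyp1 added unchanged and 260 with its blocks moved back, which keeps 158 of the 159. Groups of spots of that array were moved back where they then correlated better with set 1's other arrays. Those arrays are in the same fit, so the 260 is no separate check. Leaving out 1 set at a time gave 0 to 121. Without set 3 no feature passed (limma, 1331 at an unadjusted p under 0.05). Under the other alternatives the count stayed between 119 and 210. The 67 genes named by the rule kept their sign under all alternatives run on them (spots tested alone were counted only in all). With scaled arrays 40 of them still passed, and without a dye term 54. The 13 that did not pass without a dye term included Ndufa13, Slc25a20, Dbt, Sfrp1, Cenpf and Crat. The Dil minus Hyp count of 7, whose alternatives were chosen after seeing the data, became 25 without a dye term, 20 without mouse effects, 32 with scaled arrays, 41 with the array of WT1 and Hyp1 added unchanged, 20 with it moved back, and 0 to 2 with 1 set left out. The share of strong direct genes with the same sign in set 2, 87.9%, was 96.7% with scaled arrays. The fatty acid oxidation median stayed between -0.42 and -0.27 under every alternative, complex I between -0.43 and -0.29, and matrix enzymes between 0.24 and 0.44. Collagens, laminins and matrix ranged from 0.17 to 0.36, fibroblast markers from 0.22 to 0.65 and leukocyte markers from 0.16 to 0.38. The causes of these changes were not tested. Signal over background is not in the table, so what dim spots limit cannot be given.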
